A study of Mus musculus with 16 samples.

Results

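The genes described here encode the neuropeptides CGRP and PACAP and the receptor proteins through which they act: Calca, Calcb, Calcrl, Ramp1, Ramp2, Ramp3, Adcyap1 and Adcyap1r1. They were chosen by name as peptides and receptors linked to migraine. All 8 were found among the 25719 gene identifiers listed for each library, and all 8 passed the filter on low counts that left 15109 genes for testing. RNA came from whole mouse trigeminal ganglia, the sensory ganglia of the face and of the membranes around the brain. There were 4 groups of 4 libraries: animals without Nogo-A (KO) on postnatal day 25 (P25), wild-type animals (WT) on P25, KO animals on embryonic day 14 (E14) and WT animals on E14. Each library was made from a single ganglion. The labels name no strain, sex, KO allele or treatment. Library names of 2 ganglia in each E14 genotype carry the same animal number with an L or an R, which may mean a shared animal. The replicates are ganglia, and p-values speak of their spread. The comparisons ask how these genes differ between KO and WT at each stage, and between P25 and E14 in each genotype.

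CGRP (calcitonin gene-related peptide) is released by peptidergic pain-sensing neurons and dilates blood vessels. It acts on a receptor built from the G protein-coupled receptor CALCRL and the accessory protein RAMP1; with RAMP2 or RAMP3 the same CALCRL becomes a receptor for adrenomedullin, a vascular peptide. PACAP, the product of Adcyap1, acts on the PAC1 receptor, the product of Adcyap1r1. These receptors mainly couple to the stimulatory G protein and raise cyclic AMP in the cell. Calca makes calcitonin or α-CGRP by alternative splicing, and Calcb makes β-CGRP.

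The coding stretches of the mature α-CGRP and β-CGRP peptides are shown because the gene counts must tell these nearly identical copies apart. They were read 5′ to 3′ from GENCODE transcripts on GRCm38, where Calca lies on the minus strand of chr7:114631478-114636357 and Calcb on the plus strand of chr7:114718643-114723365. Capitals mark the bases that differ.
Calca, α-CGRP: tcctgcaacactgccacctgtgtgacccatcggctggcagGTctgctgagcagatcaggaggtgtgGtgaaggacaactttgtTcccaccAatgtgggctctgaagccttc
Calcb, β-CGRP: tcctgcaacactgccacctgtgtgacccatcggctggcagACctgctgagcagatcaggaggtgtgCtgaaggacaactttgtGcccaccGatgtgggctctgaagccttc
The 2 stretches of 111 bases (37 codons) were 95.5% identical and differed at 5 bases, in 4 codons and at 3 amino acids. Over their whole transcripts the genes had little sequence in common: 33 of the 1678 different 31-base words of Calca (1.97%) occurred in Calcb, and the same 33 made up 2.62% of the 1260 words of Calcb. Of the 7 annotated Calca transcripts, 2 hold the α-CGRP stretch. The gene-level Calca count adds all 7 transcripts, so calcitonin and α-CGRP messages were not separated.

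Estimated counts were deposited for each gene, and library totals ran from 22797780 to 24832799 in P25 KO, from 23883486 to 29562379 in P25 WT, from 15532373 to 21026134 in E14 KO and from 16442312 to 20658599 in E14 WT. Levels are given as CPM, each count set against its TMM-scaled library total, with SD the standard deviation over 4 libraries. The gene of Nogo-A, Rtn4, averaged 368 ± 17.9 CPM in P25 KO and 488 ± 58.7 CPM in P25 WT ganglia, and 298 ± 74.7 CPM in E14 KO and 359 ± 164 CPM in E14 WT ganglia (SD, n = 4 each). Its total also counts the transcripts of Nogo-B and Nogo-C, and it did not pass the test between genotypes (adjusted p = 1 at P25 and 0.943 at E14, edgeR), so this total does not check the genotype labels. E14 WT replicate 2 stood apart: the root mean square log2 difference from its 3 group-mates was 0.992 to 1.18, against 0.381 to 0.742 in the 21 other pairs within groups. Markers of the ganglion's cells changed strongly with stage. Of all genes tested, 30.6% were called higher (adjusted p under 0.05, edgeR) and 29.2% lower at P25 in KO, and 29.7% and 29.8% in WT. All 10 Schwann cell markers were higher at P25 in both genotypes, with a summed level of 22238 to 44734 CPM in P25 KO, 28513 to 33649 in P25 WT, 475 to 574 in E14 KO and 440.3 to 612 in E14 WT. The 17 tested neuron markers summed to 17502 to 19232 CPM in P25 KO, 16851 to 22131 in P25 WT, 19232 to 21425 in E14 KO and 17829 to 20480 in E14 WT. In KO and WT alike, 6 of 10 satellite glia markers were called higher and 1 lower at P25, 4 of 10 mural markers higher and 3 lower, and all 6 erythroid markers lower. Of 10 macrophage markers, 9 were called higher in KO and 8 in WT, with none lower; of 8 fibroblast markers, 6 were higher in KO and 4 in WT, with 1 lower in each; of 5 lymphatic markers, 1 was higher in KO and 0 in WT, with 2 lower in each; and of 3 tested surface epithelium markers, 2 were higher in KO and 3 in WT. The part of these shifts in the results on the peptide and receptor genes was not tested. In such bulk samples, fewer cells of a type and less RNA per cell cannot be told apart.

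Between genotypes, none of the 8 genes was called (adjusted p under 0.05 in the edgeR quasi-likelihood test, adjusted over all 15109 genes). At P25, 0 of 8 were called, against 7 genes, or 0.0463%, of all genes tested. At E14, 0 of 8 were called, against 3 genes, or 0.0199%. Without the adjustment, 0 of 8 had p under 0.05 at P25, where 282 of all genes did, and 1 of 8, Adcyap1r1, had it at E14, where 735 of all genes did. DESeq2 also called 0 of the 8 at either stage, and 18 and 5 genes in all. The difference between the P25 and E14 genotype effects was called for 0 of 8 genes and for 0 of all genes (0%); 647 of all genes had an unadjusted p under 0.05 there, and DESeq2 called 8.

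Between stages, both CGRP genes rose strongly and the PACAP gene did not pass the test. In KO ganglia, 4 of 8 genes were called higher at P25, against 30.6% of all genes, and 0 of 8 were called lower, against 29.2%. In WT ganglia, 4 of 8 were called higher, against 29.7% of all genes, and 1 of 8 was called lower, against 29.8%. Calca, Calcb, Ramp1 and Ramp2 were the 4 called higher in both genotypes, and Adcyap1r1 was the gene called lower in WT. The count of called members was the same in every one of the 24 alternative fits of each stage comparison, including those without each library. Most genes tested changed with age across the ganglion, so a stage call by itself does not set these genes apart.

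**Figure D1:**
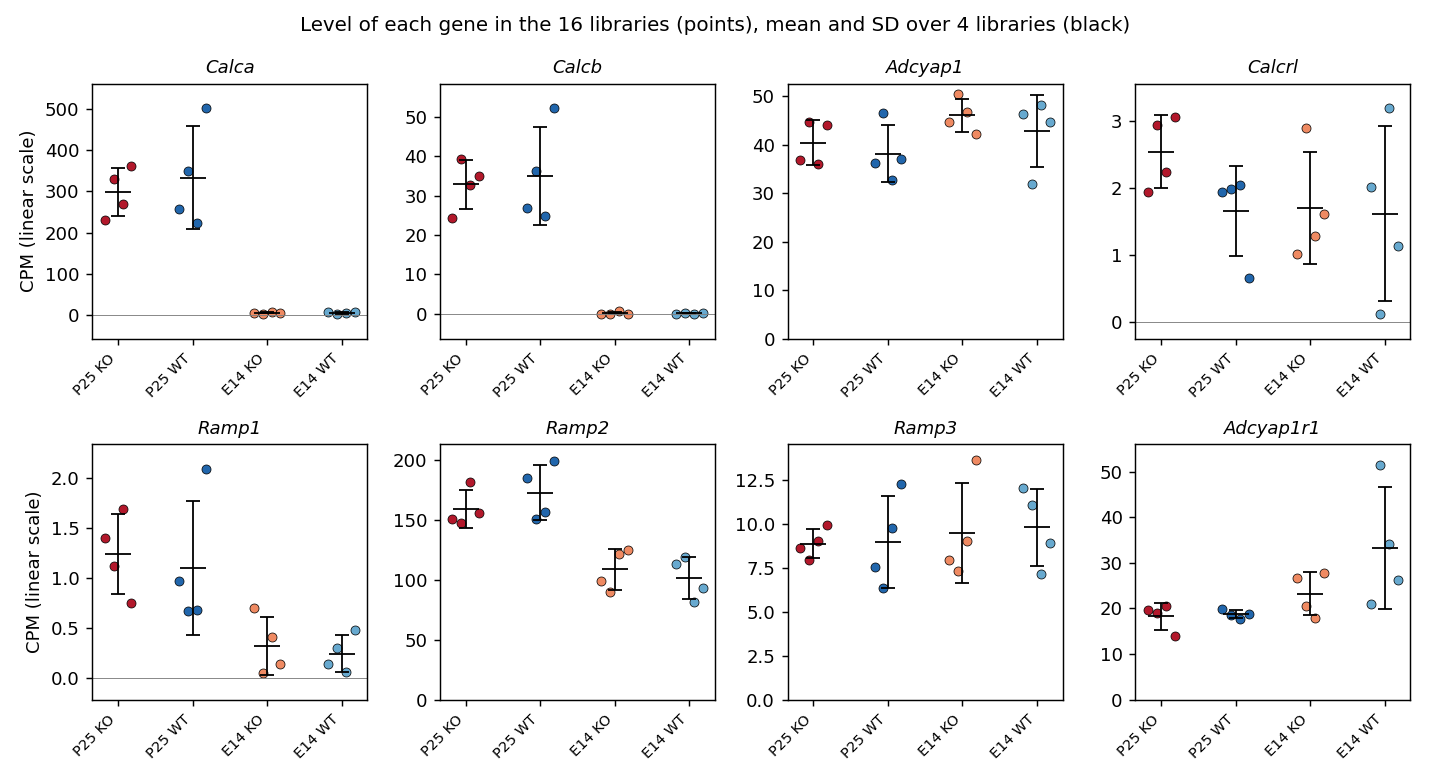
Level of each gene in every library (points; y axis in CPM, linear and scaled to each gene) in P25 KO, P25 WT, E14 KO and E14 WT ganglia; black bars are the mean and SD over 4 libraries. Calca and Calcb lie near 0 at E14 and at 224 to 502 CPM and 24.4 to 52.2 CPM at P25, while Adcyap1 stays between 31.8 and 50.3 CPM in every library.

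Calca encodes the most studied sensory neuron CGRP. It had 232, 330, 269 and 361 CPM in the 4 P25 KO libraries, against 258, 351, 224 and 502 CPM in P25 WT. At E14 it had 5.18, 3.50, 7.34 and 5.999 CPM in KO, against 6.74, 2.20, 3.81 and 7.10 CPM in WT. The genotypes overlapped at each stage, and every P25 library stood above every E14 library. The log2 fold change of P25 over E14 was 5.76 (SE 0.37, adjusted p = 6.90e-11, edgeR) in KO, a 54.2-fold difference, and 6.05 (SE 0.37, adjusted p = 4.02e-11, edgeR) in WT, a 66.5-fold difference. For KO over WT the log2 fold change was -0.16 at P25, with a 95% interval from -0.78 to 0.45, and 0.13 at E14, with an interval from -0.55 to 0.81. Genotype differences smaller than those bounds were not resolved with 4 ganglia a group.

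Calcb, the β-CGRP gene, was barely detectable at E14. Its counts there were 0, 0, 10 and 0 in KO and 0, 1, 0 and 5 in WT, so 5 of the 8 embryonic libraries had no Calcb count. At P25 it had 24.4, 39.3, 32.8 and 34.9 CPM in KO, against 26.8, 36.4, 24.8 and 52.2 CPM in WT. Every P25 library was far above every E14 library, and the genotypes overlapped. Summed over each group and scaled for library size, the P25 over E14 ratio was 247 in KO (95% counting interval 134 to 516, from 3104 and 10 counts) and 458 in WT (210.0 to 1248, from 3573 and 6 counts); these intervals cover counting error only. KO over WT at P25 gave a log2 fold change of -0.093 (95% interval -0.92 to 0.73). In the edgeR fit of P25 over E14, the adjusted p was 2.33e-09 in KO and 1.21e-09 in WT. The fitted log2 fold change hung on single embryonic libraries: it was 7.87 in KO and 12.53 without E14 KO replicate 3, and 8.75 in WT and 10.58 without E14 WT replicate 4.

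At P25 the CGRP genes kept a narrow ratio to each other. The log2 ratio of Calca to Calcb was 3.18 ± 0.16 in P25 KO and 3.24 ± 0.045 in P25 WT libraries (SD, n = 4 each). P25 WT replicate 4 was highest of its group in both, with 502 and 52.2 CPM, and had a log2 ratio of 3.26, inside the range of the other 3 libraries, 3.18 to 3.27. At E14 the ratio was 6.54 ± 2.00 in KO and 6.19 ± 1.74 in WT, a spread set by counts of 0 to 10 for Calcb. Permuting libraries within genotype, the ratio was lower at P25 by 3.16 on the log2 scale (exact permutation test, two-sided, 4900 arrangements, adjusted p = 0.00147 over 18 tests, from the smallest raw p these permutations can give, 0.000408). This size rests on the added counts, since Calcb was at 0 in 5 of the 8 E14 libraries: with 5 counts added in place of 0.5 the difference was -0.74 (adjusted p = 0.0470, exact permutation test). The 18 tests cover 9 log2 ratios between genes, each tested for stage and for genotype, with 0.5 counts added.

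PACAP's gene, Adcyap1, lay between 31.8 and 50.3 CPM in every library. It had 36.9, 44.7, 36.0 and 44.0 CPM in P25 KO, against 36.2, 46.6, 32.7 and 37.1 CPM in P25 WT. E14 libraries had 44.7, 50.3, 46.8 and 42.3 CPM in KO, against 46.2, 31.8, 48.1 and 44.7 CPM in WT. All groups overlapped. P25 over E14 gave a log2 fold change of -0.19 in KO (95% interval -0.53 to 0.16, adjusted p = 0.340, edgeR) and -0.16 in WT (-0.51 to 0.18, adjusted p = 0.410, edgeR). KO over WT gave 0.083 at P25 (-0.26 to 0.43) and 0.11 at E14 (-0.24 to 0.45). These are the tightest intervals of the 3 peptide genes.

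The balance between the Adcyap1 and Calca counts therefore differed between stages. The log2 ratio of Adcyap1 to Calca was -2.87 ± 0.16 in P25 KO and -3.07 ± 0.46 in P25 WT, and 3.10 ± 0.52 in E14 KO and 3.23 ± 0.60 in E14 WT (SD, n = 4 each). Adcyap1 had more counts than Calca in each of the 8 E14 libraries and fewer in each of the 8 P25 libraries. The stage difference was -6.14 on the log2 scale (adjusted p = 0.00147, exact permutation test), and the genotype difference was 0.039 (adjusted p = 0.967). Set against the mean log2 level of the 17 neuron markers in the same library, Calca was higher at P25 by 6.32 (adjusted p = 0.00147, exact permutation test), similar in size to its rise relative to the library. Adcyap1 against the neuron markers differed by 0.18 (adjusted p = 0.0609), and 4 of the 16 fits that leave out a library brought this under 0.05.

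**Figure D2:**
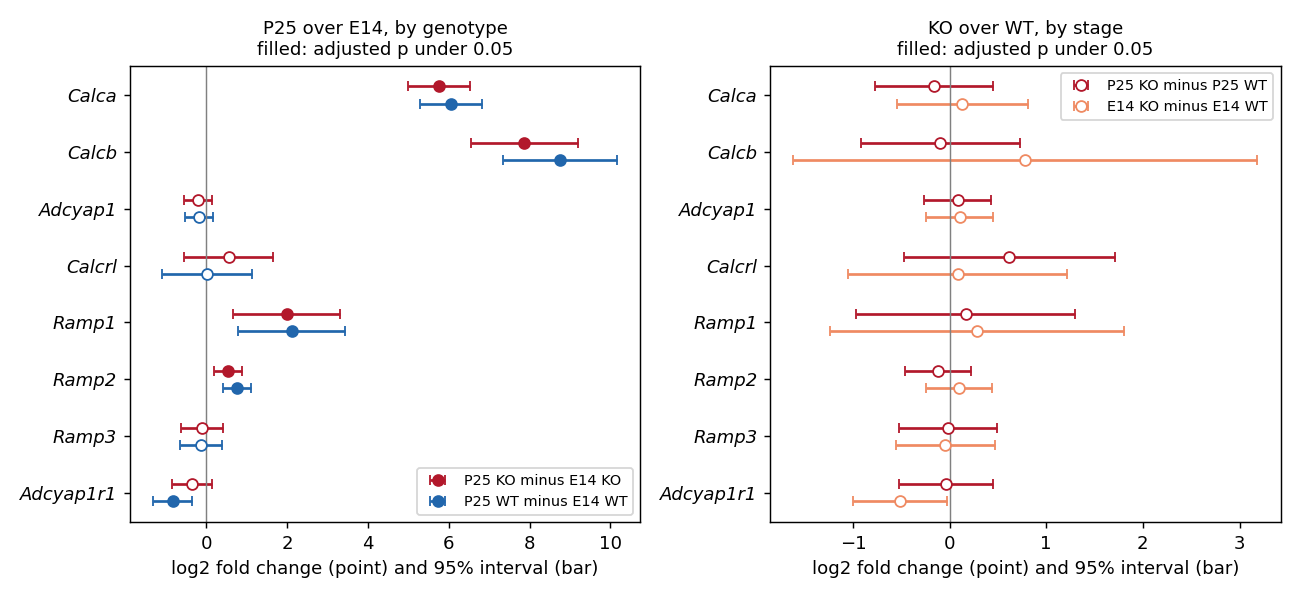
Log2 fold changes from the edgeR fit for each gene, with 95% intervals; the left panel is P25 over E14 in KO (red) and WT (blue), the right panel KO over WT at P25 (red) and E14 (orange), and filled points passed the test. Stage effects of Calca and Calcb lie between 5.76 and 8.75 in both genotypes, while no genotype effect is filled.

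Both peptide promoters are shown because Calca was called between the stages and Adcyap1 was not, and cyclic AMP, which their receptors raise, acts on genes through DNA that holds the letters TGACG. RefSeq windows of 300 bases (GRCm38.p6) were given for 6 of the 8 genes; Calcb and Ramp2 had none. Capitals mark TGACG, searched on both strands.
Calca, chr7:114636308-114636607, minus strand: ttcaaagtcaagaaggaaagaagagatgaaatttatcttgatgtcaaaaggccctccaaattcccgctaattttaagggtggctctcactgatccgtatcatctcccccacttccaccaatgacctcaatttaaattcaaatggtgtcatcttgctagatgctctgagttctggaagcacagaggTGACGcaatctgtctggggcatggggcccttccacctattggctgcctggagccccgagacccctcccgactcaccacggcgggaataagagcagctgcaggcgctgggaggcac
Adcyap1, chr17:93198767-93199066, plus strand: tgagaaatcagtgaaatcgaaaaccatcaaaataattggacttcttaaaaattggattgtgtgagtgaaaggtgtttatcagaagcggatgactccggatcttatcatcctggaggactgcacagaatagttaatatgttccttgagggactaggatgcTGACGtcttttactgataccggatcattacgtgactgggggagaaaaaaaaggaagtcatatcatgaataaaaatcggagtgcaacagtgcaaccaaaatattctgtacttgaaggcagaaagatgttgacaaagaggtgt
Each window held TGACG at 1 position, as did that of Ramp1, while the windows of Calcrl, Ramp3 and Adcyap1r1 held none. TGACG occurred in 20.8% of the 32851 windows of this length, and the full palindrome TGACGTCA, which contains it, in 1.79% and in none of the 6 genes. The same short match was thus present in a gene whose count rose more than 50-fold and in one that did not pass the test; it is a description of letters, not of binding.

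Calcrl, the shared receptor subunit of CGRP and adrenomedullin, was sparse at both stages. It had 1.93, 2.93, 2.24 and 3.05 CPM in P25 KO, against 1.93, 1.98, 2.04 and 0.657 CPM in P25 WT. At E14 it had 1.01, 2.89, 1.28 and 1.62 CPM in KO, against 2.02, 0.122, 3.18 and 1.14 CPM in WT. The lowest 2 values belonged to P25 WT replicate 4 and to E14 WT replicate 2, the library that stood apart, with 17 and 2 counts. No comparison passed the test. P25 over E14 gave a log2 fold change of 0.56 in KO (95% interval -0.54 to 1.67) and 0.029 in WT (-1.09 to 1.15), and KO over WT gave 0.62 at P25 (-0.47 to 1.71) and 0.084 at E14 (-1.05 to 1.21), so differences of 2-fold in either direction were not resolved in WT between stages or at E14 between genotypes. Relative to the mean of 16 endothelial markers, Calcrl was higher at P25 by 1.12 on the log2 scale (adjusted p = 0.0983, exact permutation test) and by 0.64 without E14 WT replicate 2. Without E14 WT replicate 3 the difference was 1.37 (adjusted p = 0.0367, exact permutation test), and leaving out P25 WT replicate 4 also brought it under 0.05 (adjusted p = 0.0331, exact permutation test).

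Ramp1, the subunit that makes CALCRL a CGRP receptor, was the member with the fewest counts at P25, and it was higher there than at E14. It had 1.40, 1.12, 1.69 and 0.754 CPM in P25 KO, against 0.966, 0.674, 0.682 and 2.09 CPM in P25 WT. At E14 it had 0.695, 0.0466, 0.408 and 0.143 CPM in KO, against 0.138, 0.305, 0.0568 and 0.482 CPM in WT. Within each genotype the lowest P25 library was above the highest E14 library, by little: 0.754 against 0.695 CPM in KO and 0.674 against 0.482 CPM in WT. The log2 fold change of P25 over E14 was 2.00 in KO (SE 0.63, adjusted p = 0.0102, edgeR), from 116 and 22 counts, and 2.11 in WT (SE 0.64, adjusted p = 0.00765, edgeR), from 113 and 20 counts. It was 2.67 in KO without E14 KO replicate 1 and 2.79 in WT without E14 WT replicate 4, the E14 libraries with the most Ramp1. It was 1.61 in WT without P25 WT replicate 4 (adjusted p = 0.0453, edgeR), which held 54 of the 113 counts, and 1.62 in KO without E14 KO replicate 2 (adjusted p = 0.0350, edgeR). KO over WT gave 0.17 at P25 (95% interval -0.97 to 1.30) and 0.29 at E14 (-1.24 to 1.81). As a ratio to Calcrl, Ramp1 differed between stages by 1.64 on the log2 scale, with a spread of 0.76 to 2.80 (SD) within groups, and this did not pass (adjusted p = 0.215, exact permutation test).

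Ramp2, the subunit of the vascular adrenomedullin receptor, carried the most counts of the receptor genes, and its count cannot be assigned to Ramp2 alone. It had 150.1, 147, 181 and 156 CPM in P25 KO, against 184, 150.2, 157 and 199 CPM in P25 WT. In E14 ganglia it had 98.6, 89.4, 122 and 125 CPM in KO, against 113, 119, 81.5 and 92.9 CPM in WT. Every P25 library was above every E14 library. The log2 fold change of P25 over E14 was 0.55 in KO (SE 0.16, adjusted p = 0.00748, edgeR) and 0.77 in WT (SE 0.16, adjusted p = 0.000503, edgeR), and KO over WT gave -0.12 at P25 (95% interval -0.46 to 0.22) and 0.099 at E14 (-0.24 to 0.44).

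On GRCm38, Ramp2 (chr11:101246028-101259546) overlaps Vps25 (chr11:101253707-101259549), a gene of the endosomal sorting machinery, on the same strand. The overlap covers 1103 of 3301 exon bases of Ramp2 (33.4%), and 1073 of its 3381 different 31-base words (31.7%) occur in Vps25. All of these lie in 1 of the 8 annotated Ramp2 transcripts, Ramp2-203, of whose words 74.1% are shared. Vps25 averaged 141 ± 17.2 CPM in P25 KO, 155 ± 18.005 in P25 WT, 97.3 ± 15.4 in E14 KO and 88.1 ± 15.8 in E14 WT (SD, n = 4 each). The ratio of Ramp2 to Vps25 stayed between 1.09 and 1.20 in all 16 libraries, although both levels ranged over more than 2-fold. Fah, for which no exon overlap with Ramp2 was found, followed the Ramp2 profile almost as closely. The root mean square difference of centred log2 levels was 0.053 for Fah and 0.041 for Vps25. Fah was picked for this closeness out of 13138 genes, so it is no test of shared reads. Vps25 gave stage log2 fold changes of 0.54 in KO (adjusted p = 0.00875, edgeR) and 0.81 in WT (adjusted p = 0.000329, edgeR), close to those of Ramp2. How many reads of Ramp2 and of Vps25 entered the Ramp2 count was not tested, and strand-aware counting does not separate genes on the same strand.

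Endothelial markers moved in both directions between the stages. Of 16, 4 were called higher and 8 lower at P25 in KO, against 30.6% and 29.2% of all genes, and 3 higher and 10 lower in WT, against 29.7% and 29.8%. Their summed level was 180 to 302 CPM in P25 KO, 178 to 233 in P25 WT, 299.9 to 365 in E14 KO and 295 to 401 in E14 WT, and none was at 0 in a whole group. Pecam1, an adhesion molecule of endothelial cells, had log2 fold changes of -1.75 in KO and -2.05 in WT, and Cdh5, the endothelial cadherin, of -1.88 in KO and -1.86 in WT. Cldn5, of a tight junction protein, rose by 1.85 in KO and 1.47 in WT, and Vwf, of von Willebrand factor, by 2.57 and 1.39. Egfl7 rose by 0.90 in KO and 0.59 in WT. Among the mural markers, Tagln rose by 4.37 in KO and 3.43 in WT and Rgs5 by 3.08 and 2.91, while Notch3 changed by -2.45 in KO and -3.05 in WT. Cldn5, Vwf, Egfl7 and these mural genes are named after their values were seen, and the part of vascular cells in the Ramp2 count was not tested. Ramp2 relative to the mean of these markers was higher at P25 by 1.17 on the log2 scale (adjusted p = 0.00147, exact permutation test). Given the overlap with Vps25, this ratio describes the deposited count and not the adrenomedullin receptor.

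**Figure D3:**
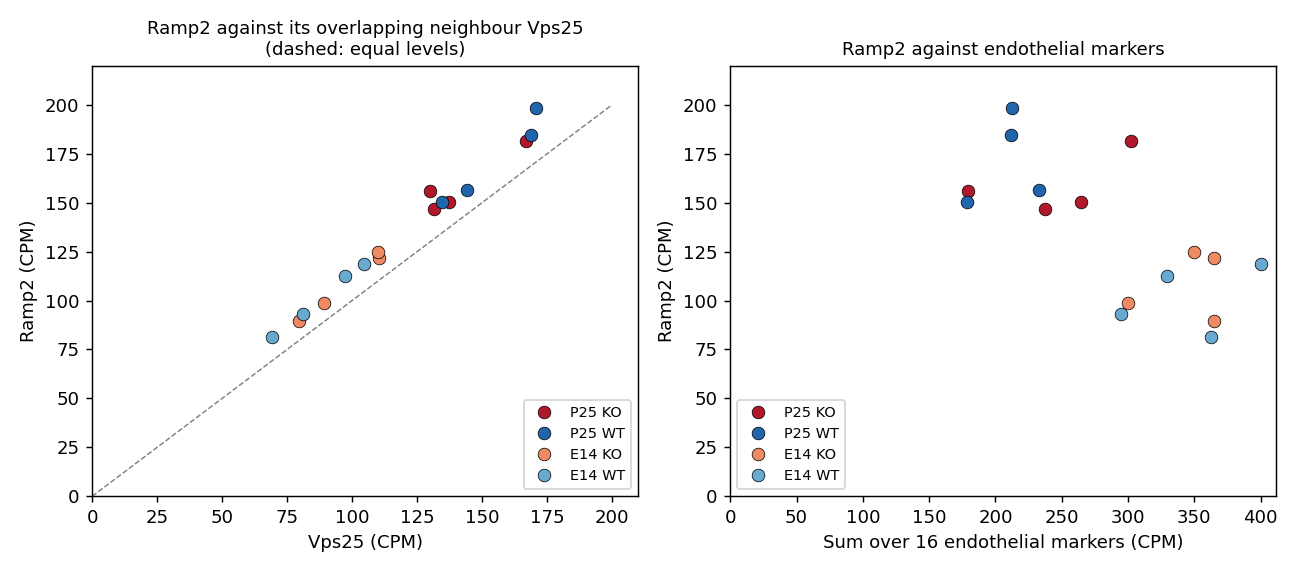
Ramp2 level (y axis, CPM) in each of the 16 libraries against the level of its overlapping neighbour Vps25 (left, CPM; the dashed line marks equal levels) and against the summed level of 16 endothelial markers (right, CPM). Ramp2 runs parallel to Vps25 at a ratio of 1.09 to 1.20, while the P25 libraries lie higher in Ramp2 and mostly lower in endothelial markers than the E14 libraries.

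Ramp3, the other adrenomedullin subunit, showed no stage or genotype difference past the test. It had 8.64, 7.93, 9.03 and 9.96 CPM in P25 KO, against 7.57, 6.36, 9.76 and 12.3 CPM in P25 WT. The E14 values were 7.96, 7.32, 9.03 and 13.7 CPM in KO, against 12.1, 11.1, 7.16 and 8.94 CPM in WT. All groups overlapped, with a mean between 8.89 and 9.81 CPM in each. P25 over E14 gave -0.096 in KO (95% interval -0.61 to 0.42) and -0.13 in WT (-0.64 to 0.38) on the log2 scale. KO over WT gave -0.017 at P25 (-0.53 to 0.49) and -0.047 at E14 (-0.56 to 0.47). The interval of each comparison thus lies within about 1.6-fold in either direction. Ramp3 relative to Ramp2 was lower at P25 by 0.76 on the log2 scale and Ramp1 relative to Ramp2 higher by 1.58 (adjusted p = 0.00147 and 0.0135, exact permutation test), but both ratios carry the uncertain Ramp2 count, and the second was 0.71 (adjusted p = 0.0787) with 5 counts added.

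Adcyap1r1, the PACAP receptor gene, was lower at P25 than at E14 in WT ganglia. It had 19.5, 19.1, 20.4 and 13.9 CPM in P25 KO, against 19.9, 18.6, 17.6 and 18.8 CPM in P25 WT. The E14 values were 26.7, 20.6, 17.9 and 27.9 CPM in KO, against 21.0, 51.5, 34.1 and 26.3 CPM in WT. P25 WT and E14 WT did not overlap, while P25 KO and E14 KO did. The log2 fold change of P25 over E14 was -0.35 in KO (SE 0.23, adjusted p = 0.201, edgeR) and -0.82 in WT (SE 0.23, adjusted p = 0.00483, edgeR). The highest value, 51.5 CPM, was in E14 WT replicate 2, and without that library the WT change was -0.53 (SE 0.19, adjusted p = 0.0188, edgeR).

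The PACAP receptor was also the member with the smallest unadjusted p between genotypes at E14. There it averaged 23.3 ± 4.81 CPM in KO and 33.2 ± 13.3 CPM in WT (SD, n = 4 each), a log2 fold change of -0.51 (unadjusted p = 0.0396, adjusted p = 0.942, edgeR) that did not pass. Without E14 WT replicate 2 it was -0.22. The stage effect did not differ detectably between genotypes: the interaction was 0.47 on the log2 scale (95% interval -0.21 to 1.16, adjusted p = 0.993, edgeR), so the call in WT alone is not shown to be particular to WT. At P25 the genotypes differed by -0.039 (-0.52 to 0.45). The receptor is also made by astrocytes. The 6 tested markers of central glia, a list not limited to astrocytes, were all called higher at P25 in both genotypes. Of all genes, 30.6% were called higher in KO and 29.7% in WT. The markers summed to 122 to 282 CPM in P25 KO, 2.30 to 269 in P25 WT, at most 0.116 in E14 KO and at most 0.263 in E14 WT. Olig2 and Mobp were at 0 in every E14 library. P25 WT replicate 3, with 2.30 CPM of these markers, had 17.6 CPM of Adcyap1r1, against 18.6 to 19.9 CPM in the other 3 P25 WT libraries, with 99.4 to 269 CPM of the markers. That is a single library, and the part of central glia or astrocytes in the Adcyap1r1 count was not tested.

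Compared per kilobase of annotated exon, the genes spanned more than 2 orders of magnitude at P25. Calca was highest, at 177 ± 34.6 CPM per kb in P25 KO and 198 ± 73.7 in P25 WT, followed by the uncertain Ramp2 count at 48.0 ± 4.76 and 52.2 ± 6.93, Calcb at 25.99 ± 4.97 and 27.7 ± 9.87, and Adcyap1 at 10.7 ± 1.21 and 10.1 ± 1.57 (SD, n = 4 each). Ramp3 followed at 6.44 ± 0.61 in P25 KO and 6.52 ± 1.89 in P25 WT, and Adcyap1r1 at 2.76 ± 0.45 and 2.84 ± 0.14. Calcrl, at 0.520 ± 0.11 in P25 KO and 0.339 ± 0.14 in P25 WT, and Ramp1, at 0.410 ± 0.13 and 0.365 ± 0.22, were the lowest and overlapped each other in both genotypes. The 2 subunits of the CGRP receptor were therefore the rarest of these transcripts in ganglia where the CGRP gene itself was the most abundant of the 8. At P25 the other neighbours in this order did not overlap, except Adcyap1 and Ramp3 in WT.

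At E14 the order was different. Ramp2 was highest, at 32.9 ± 5.22 CPM per kb in KO and 30.7 ± 5.21 in WT, followed by Adcyap1 at 12.2 ± 0.90 and 11.3 ± 1.96 and Ramp3 at 6.88 ± 2.08 and 7.11 ± 1.59 (SD, n = 4 each). Adcyap1r1, at 3.52 ± 0.73 in KO and 5.03 ± 2.02 in WT, overlapped Calca, at 3.27 ± 0.95 in KO and 2.94 ± 1.40 in WT. Calcrl, at 0.348 ± 0.17 and 0.331 ± 0.27, overlapped its neighbours Calcb, at 0.115 ± 0.23 in KO, and Ramp1, at 0.0812 ± 0.062 in WT, which overlapped each other too. In WT, Adcyap1 also overlapped Ramp3 and Ramp3 overlapped Adcyap1r1. Dividing by mean transcript length in place of exon length exchanged neighbouring ranks: Adcyap1r1 moved above Ramp3 in all 4 groups, Calca above Ramp3 in both E14 groups, and Ramp1 above Calcrl in P25 KO and above Calcb in E14 KO.

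**Figure D4:**
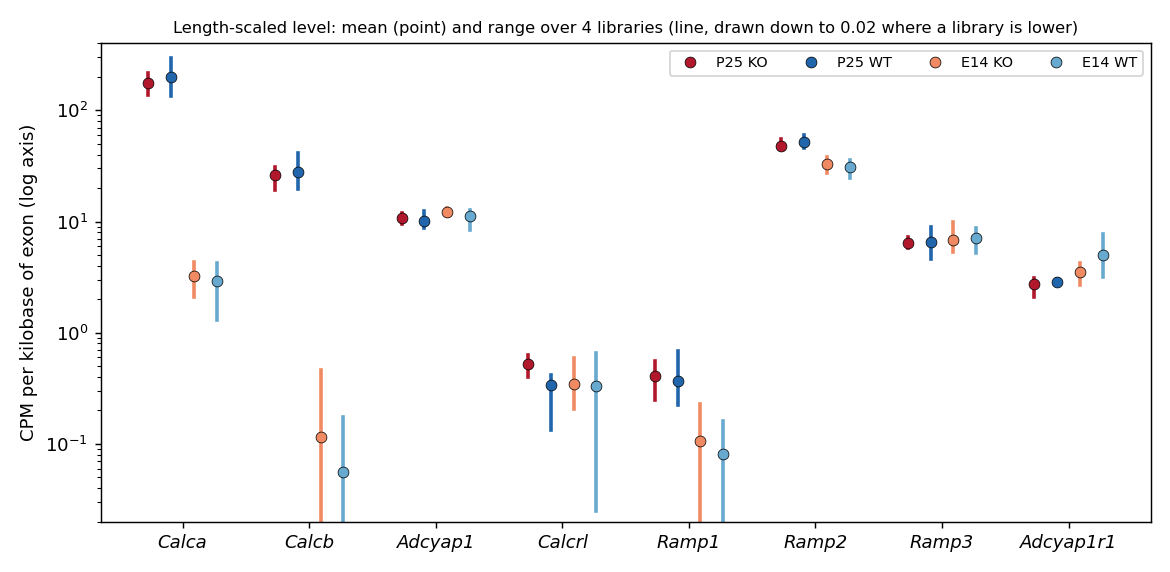
Level per kilobase of exon (log axis, CPM per kb) of each gene in P25 KO, P25 WT, E14 KO and E14 WT ganglia; points are means and lines the range over 4 libraries, cut off at 0.02. Calca averages 177 and 198 in P25 KO and WT and 3.27 and 2.94 in E14 KO and WT, while Calcrl and Ramp1 stay under 0.7 in every library.

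Most of the listed genes that process and store neuropeptides were called higher at P25. Of 18 genes for peptide processing and dense-core vesicles, 14 were called higher and 1 lower in KO, against 30.6% and 29.2% of all genes, and 13 higher and 1 lower in WT, against 29.7% and 29.8%. The list had median log2 fold changes of 1.00 in KO and 1.03 in WT, against 0.011 and 0.00031 over all genes. Scg2, which makes the vesicle protein secretogranin II, averaged 121 ± 11.8 CPM in P25 KO and 130.03 ± 10.8 in P25 WT, and 5.55 ± 0.40 in E14 KO and 4.84 ± 2.30 in E14 WT (SD, n = 4 each). Chgb, of chromogranin B, rose by 2.52 on the log2 scale in KO and 2.61 in WT. Pcsk1, a prohormone convertase, rose by 1.46 and 1.75, and Pam, which adds the terminal amide that CGRP and PACAP carry, rose by 1.18 and 1.15. The gene that fell, Slc18a2, encodes the vesicular monoamine transporter and not a peptide protein; it averaged 0.350 ± 0.13 CPM in P25 KO and 0.270 ± 0.096 in P25 WT, against 2.68 ± 1.01 in E14 KO and 2.55 ± 0.95 in E14 WT. Scg5, Ptprn2 and Syt4 passed in neither genotype, and Vgf, at 0.21 (adjusted p = 0.408, edgeR), did not pass in WT. Pcsk1, Pam and the genes that did not pass are named here after their values were seen.

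Genes of signalling downstream of these receptors were called in both directions, more of them higher than lower at P25. Of 30 genes of the stimulatory G protein and cyclic AMP pathway, 12 were called higher and 3 lower at P25 in KO, against 30.6% and 29.2% of all genes, and 12 higher and 7 lower in WT, against 29.7% and 29.8%. The list had medians of 0.31 in KO and 0.33 in WT on the log2 scale, against 0.011 and 0.00031 over all genes. Pde4c, a phosphodiesterase that breaks down cyclic AMP, rose by 5.15 in KO and 4.62 in WT. Adcy8, an adenylyl cyclase, rose by 3.43 and 3.94, and Rapgef4, the cyclic AMP sensor Epac2, by 1.97 and 2.12. Of 13 genes for receptor desensitisation and peptide breakdown, 6 were called higher and 2 lower in KO, against 30.6% and 29.2% of all genes. In WT, 4 were called higher and 2 lower, against 29.7% and 29.8%. The 4 of 13 called higher in WT is close to the share of all genes, and whether the list differs from all genes was not tested. Grk3 rose by 2.78 in KO and 2.22 in WT and Mme, which encodes the peptidase neprilysin, by 2.44 and 1.78, while Grk5 changed by -0.91 in KO and -1.03 in WT. The lower count in WT was 1 without E14 WT replicate 2 and without P25 WT replicate 2.

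Genes listed as markers of peptidergic pain-sensing neurons were called in both directions, and which neurons made them was not tested. Of 13 tested, 6 were called higher and 6 lower at P25 in each genotype, against 30.6% and 29.2% of all genes in KO and 29.7% and 29.8% in WT, with a median log2 fold change of 0.039 in KO and 0.13 in WT. Scn11a, a sodium channel of pain-sensing neurons, rose by 4.54 in KO and 4.86 in WT. Fxyd2, a sodium pump subunit, rose by 6.43 and 6.73. Tac1, the gene of substance P, a peptide often made by the same neurons as CGRP, rose by 2.61 and 2.90. Gal, the gene of the peptide galanin, averaged 5.45 ± 1.43 CPM in P25 KO and 5.79 ± 1.78 in P25 WT, against 123 ± 21.7 in E14 KO and 107 ± 6.64 in E14 WT, a log2 fold change of -4.50 in KO and -4.21 in WT. Trpv1, the capsaicin receptor, gave 0.039 (adjusted p = 0.858, edgeR) in KO and 0.13 (adjusted p = 0.530, edgeR) in WT. Tac1 and Trpv1 were named after their values were seen. The neuron markers split likewise, with 5 called higher and 8 lower of 17 in each genotype, against the same shares of all genes. Their higher count in KO was 3 without E14 KO replicate 1 and without P25 KO replicate 1.

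Other genes listed as relatives of the calcitonin and PACAP families were mostly too low to test. Of 15 listed, 10 did not pass the filter; among them Calcr, the calcitonin receptor, had 5 counts over all 16 libraries, and Iapp and Adm2 had none. Of the 5 tested, 2 were called higher and 3 lower in KO, against 30.6% and 29.2% of all genes. In WT, 1 was called higher and 2 lower, against 29.7% and 29.8%. Crcp was among those lower in KO, at -0.52 (adjusted p = 0.0327, edgeR), and gave -0.34 in WT (adjusted p = 0.150, edgeR). It averaged 21.1 ± 2.75 CPM in P25 KO and 20.3 ± 3.01 in P25 WT, against 30.2 ± 5.57 in E14 KO and 25.8 ± 7.16 in E14 WT. Adm, the gene of adrenomedullin, averaged 1.40 ± 0.081 CPM in P25 KO and 1.11 ± 0.48 in P25 WT, against 0.0909 ± 0.15 in E14 KO and 0.0600 ± 0.086 in E14 WT, a rise of 4.00 and 4.02 on the log2 scale (adjusted p = 0.000135 in KO and 0.000181 in WT, edgeR). Sct, the gene of secretin, had log2 fold changes of -6.15 in KO and -4.69 in WT, and Gipr, a receptor for an incretin hormone, of -4.13 and -3.89. Both were near the floor at P25, which leaves the size of these changes uncertain. Sct averaged 0.0108 CPM in P25 KO and 0.0481 in P25 WT, against 1.15 in E14 KO and 1.41 in E14 WT. Gipr averaged 0.0530 and 0.0696 CPM in P25 KO and WT, against 1.02 and 1.10 in E14 KO and WT. Vipr2, a receptor that binds PACAP and VIP, gave 1.43 in KO (adjusted p = 0.0461, edgeR) and 1.18 in WT (adjusted p = 0.0818, edgeR). These relatives are named after their values were seen. The KO call of Vipr2 was lost in 9 of the 16 fits that leave out a library. Over all of these lists, no gene was called between genotypes at either stage.

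**Figure D5:**
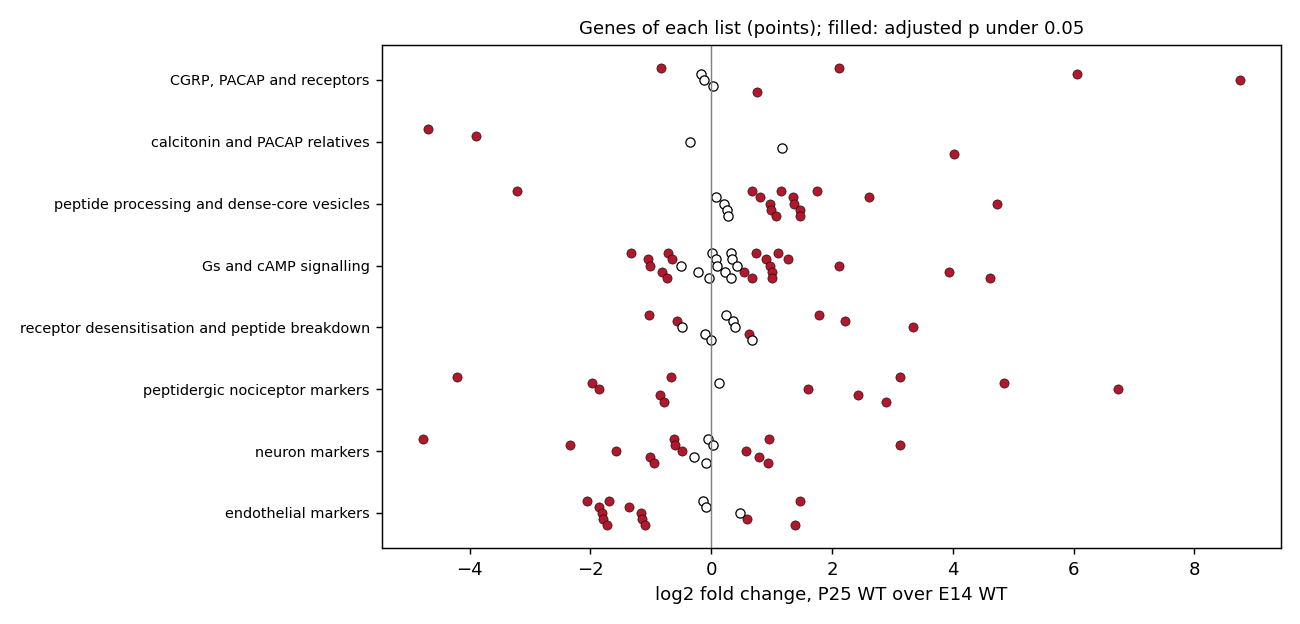
Log2 fold change of P25 WT over E14 WT (x axis) of each tested gene in the CGRP and PACAP set and in 7 lists; filled points passed the test and vertical position within a row carries no value. The 2 rightmost points of the top row are Calca at 6.05 and Calcb at 8.75, while the peptide processing row lies mostly above 0 and the neuron, pain-neuron and endothelial rows fall on both sides.

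Some genes followed the same profile over the 16 libraries, judged by the root mean square difference of centred log2 levels among the 13138 named genes that averaged 1 CPM or more. Closest to Calca were Apod (0.36), S100a6 (0.38) and Kcnk1 (0.47). Apod, of the lipid carrier apolipoprotein D, averaged 938 ± 77.1 CPM in P25 KO and 1310.2 ± 377 in P25 WT, against 19.3 ± 7.25 in E14 KO and 14.4 ± 4.02 in E14 WT. Calcb was followed less tightly, by Slc36a2 (0.94), Mgl2 (1.04) and Pllp (1.18). Ramp2 was closest to Vps25 (0.041), Fah (0.053) and Ctsa (0.094), Ramp1 to Avpi1 (0.58), Kcnj14 (0.64) and Slc22a3 (0.69), and Ramp3 to Hspbp1 (0.18), Tuba1b (0.18) and Gtf2h4 (0.19).

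The remaining profiles lay close to genes whose means also moved little between groups or whose levels spread widely in E14 WT. Calcrl was nearest to Cep295 (0.44), Erbin (0.45) and Zc3h6 (0.46), and Adcyap1 to Yaf2 (0.12), Stx7 (0.13) and Crebzf (0.13). Near Adcyap1r1 were Tyk2 (0.18) and Vars (0.20). Tyk2 and Vars had SDs of 3.23 and 17.4 CPM in E14 KO, against SDs of 15.4 and 77.7 CPM about means of 34.1 and 165 CPM in E14 WT, and Adcyap1r1 had an SD of 4.81 CPM in E14 KO and 13.3 CPM in E14 WT. All of these distances share the same libraries and the strong stage difference, and they are descriptions of these 16 libraries only.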

How the data were processed

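Per the labels' protocols, polyadenylated RNA was made into stranded libraries. The authors deposited estimated counts by gene as whole numbers for each of the 16 libraries. Of the tools used, the submitters' processing notes list kallisto 0.46, fastp 0.20.0 and DESeq2 1.32.0 with the GRCm39 build, giving neither role nor order. For the transcript annotation and the strand setting: not given in the sources used here. Such estimates split reads that match several transcripts, so genes that share sequence are less certain. Positions, lengths and transcript sequences came from GENCODE on GRCm38, which is not that build, and promoters from RefSeq on GRCm38.p6. A symbol was found for 25614 of 25719 identifiers.

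With edgeR 4.0.16 (R 4.3.3), 1 fit covered all 16 libraries (TMM scaling, filterByExpr on the 4 groups, quasi-likelihood F test, Benjamini-Hochberg adjustment over 15109 genes); the counts were already whole, so rounding changed none. It was tested on simulated data. Ratios between genes took 0.5 added counts and an exact permutation test (scipy 1.17.1). Counting intervals cover counting error only. Alternatives were DESeq2 1.42.0, other scalings and filters, a replicate block, summed ganglia, only the libraries compared, and each library left out. The members, the 16 other gene lists and the tests were chosen with earlier results of these data known. The text names the members, up to 3 called genes per list with the largest WT stage change and a mean of at least 1 CPM, and the 3 genes most alike each member, of which 1 is not reported here; others are marked.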

Additional observations from a re-analysis of the deposited data

Results flagged for a closer look

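In 2 of the 32 sets of 4 libraries (8 genes in 4 groups), 1 library lay apart from the other 3 by more than Dixon's 95% critical value for 4 values. Chance gives 1 in 20 for normally distributed values. Calcb in E14 KO had 0.582 CPM in replicate 3, from 10 counts, and 0 in the other 3 libraries. Any count there would have been flagged beside those values of 0, so the chance rate does not apply to this set. Calcrl in P25 WT had 0.657 CPM in replicate 4, from 17 counts, against 1.93 to 2.04 CPM in the other 3. That P25 WT library was also the highest of its group in Calca, Calcb, Ramp1, Ramp2 and Ramp3.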

How the results depend on the processing

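The number of members called, 0, 0, 4, 5 and 0 for P25 KO over WT, E14 KO over WT, P25 over E14 in KO, P25 over E14 in WT and the interaction, was the same in all 119 alternative values run. No member called in a stage comparison changed direction or lost its call. Over all genes, the count between P25 genotypes was 7, and 18 with DESeq2, 11 with same-numbered ganglia summed, 3 with only the libraries compared, 2 with the replicate block and 3 to 14 without single libraries, the highest without P25 KO replicate 4. Between E14 genotypes it was 3, and 5 with DESeq2, 2 with the replicate block and 1 to 5 without single libraries. The interaction had 0, 8 with DESeq2 and 0 to 7 without single libraries, the 7 without P25 KO replicate 4. The replicate numbers were not used as pairs: correlations of same-numbered libraries about their group means ran from -0.157 to 0.154 at P25 and from -0.392 to 0.030 at E14, and 1 of 8 correlated best with its own number. With the block, 8277 genes were called between stages in KO and 8274 in WT, against 9032 and 9001. Uncalled log2 fold changes that changed sign were Ramp3 at P25 (0.026 with library totals alone, 0.022 with the block), Calcrl and Ramp3 at E14 (-0.017 and 0.041 with ganglia summed), Calcrl by stage in WT (-0.10 with library totals, -0.18 with ganglia summed), and in the interaction Ramp1 (0.049 with the block), Ramp3 (-0.0027 without the filter, -0.062 with ganglia summed) and Adcyap1 (0.039 with library totals, 0.0097 with ganglia summed). Leaving out single libraries also turned uncalled values. KO over WT at P25 ran from -0.31 to 0.10 for Calca, -0.23 to 0.16 for Calcb, -0.016 to 0.67 for Ramp1, -0.15 to 0.17 for Ramp3 and -0.098 to 0.075 for Adcyap1r1. At E14 it ran from -0.11 to 0.39 for Calca, -3.82 to 2.59 for Calcb, -0.28 to 0.63 for Calcrl, -0.39 to 0.94 for Ramp1, -0.24 to 0.11 for Ramp3 and -0.011 to 0.20 for Adcyap1. P25 over E14 ran from -0.18 to 0.16 for Ramp3 in KO, -0.31 to 0.069 for Ramp3 in WT and -0.34 to 0.61 for Calcrl in WT. The interaction ran from -2.69 to 3.73 for Calcb, -0.0078 to 0.90 for Calcrl, -0.77 to 0.56 for Ramp1, -0.14 to 0.23 for Ramp3 and -0.11 to 0.094 for Adcyap1. Of the log2 ratios, the stage difference of Ramp1 over Ramp2 was 0.71 with a pseudocount of 5, that of Calca over Calcb -0.74, and that of Ramp1 over Calcrl 2.41 with ganglia summed (adjusted p = 0.0483, exact permutation test). Genotype differences changed sign for Calca over the neuron markers (-0.0013 with a pseudocount of 5, -0.064 with ganglia summed), Calca over Calcb (-0.14 with ganglia summed) and Ramp3 over Ramp2 (0.0089 with ganglia summed). Without single libraries, genotype differences ran from -0.12 to 0.64 for Calca over Calcb, -0.051 to 0.49 for Ramp1 over Ramp2, -0.070 to 0.038 for Ramp3 over Ramp2, -0.95 to 0.11 for Ramp1 over Calcrl, -0.084 to 0.14 for Adcyap1 over Calca and -0.082 to 0.15 for Calca over the neuron markers, and stage differences from 0.13 to 0.21 for Adcyap1 over the neuron markers and 0.64 to 1.37 for Calcrl over the endothelial markers. The causes were not tested. Counts over an E14 group were at most 10 for Calcb, 22 for Ramp1 and 134 for Calcrl. For Calcrl in WT the P25 over E14 counting interval, a ratio of 0.802 to 1.29, was narrower than the fitted log2 interval of -1.09 to 1.15, so the spread between libraries exceeded counting error there.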

Other observations

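Vip, which encodes the peptide VIP, a relative of PACAP that acts on some of its receptors, had 119 counts in all, and 115 of them, or 5.25 CPM, came from P25 KO replicate 3. The other 3 P25 KO libraries had at most 3 counts each and no library of the other 3 groups had any, so Vip was not among the genes tested. That library was the highest of its group in Ramp1, Ramp2 and Adcyap1r1, at 1.69, 181 and 20.4 CPM, and the lowest in Adcyap1, at 36.0 CPM.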
